A study of Mus musculus with 5 samples.

Results

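The CYP2 and CYP3 cytochrome P450 enzymes oxidise drugs, steroids and fatty acids in liver. They were taken here as all genes whose symbol in the platform's probe table begins with Cyp2 or Cyp3 followed by a subfamily letter and a number, with the Cyp2b enzymes left out. That rule took 36 of 29922 probes and 29 of 16637 named genes, and each gene was read from its brightest probe. The rule reads gene symbols only, but the genes and gene lists were chosen with earlier results of these data known. RefSeq (GRCm38.p6) lists 52 protein-coding mouse genes that match the rule, and 28 of the 29 genes are among them. The remaining gene, Cyp2d13, is a transcribed pseudogene there. Genes such as Cyp3a11, Cyp2a5 and Cyp2c37 were not analysed here.

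Liver RNA was hybridised in 1 colour to Phalanx Mouse OneArray slides, with 1 array for each of 5 groups of C57BL/6 mice kept on their diets for 16 weeks. The groups were wild-type (WT) mice on a high-fat diet with nordihydroguaiaretic acid (NDGA, a plant lignan that inhibits lipoxygenases), WT mice on the high-fat diet, ob/ob mice on chow with NDGA, ob/ob mice on chow, and WT mice on chow. NDGA was given at 2.5 g per kg of food in both NDGA groups. The ob/ob mouse carries a mutated leptin gene on both alleles and becomes obese on chow. No ob/ob group received the high-fat diet, and no WT chow group received NDGA. RNA of 3 animals was used per group according to the series' design text, and neither pooling, sex nor age is stated there. With 1 array per group there is no replicate, no test and no p-value, and every difference below is between 2 arrays.

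Cytochrome P450 enzymes sit in the membrane of the endoplasmic reticulum and insert an oxygen atom into their substrates at a haem iron. Electrons reach them from P450 oxidoreductase (Por) and cytochrome b5. In mouse liver many of these genes are induced by foreign compounds through the nuclear receptors CAR (Nr1i3) and PXR (Nr1i2), several differ between the sexes through the pattern of growth hormone release, and many are concentrated in hepatocytes around the central vein.

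The deposited intensities had medians between 38.1 and 71.0 per array, the highest being that of ob/ob chow with NDGA, so the arrays were quantile normalized before any comparison. Values below are quantile-normalized intensities unless called deposited, and a log2 difference is taken on log2(intensity + 50), a scale that understates differences of dim genes. A gene passed the brightness filter when its mean over all 5 arrays was at or above the median of all genes, which corresponds to an intensity of 91.8. This left 19 of the 29 genes and 8319 genes in all, and such a gene is said to be called where its log2 values on a pair of arrays differ by 1 or more (2-fold). The 2 probes of a gene gave an SD per probe of 0.28 to 0.46 in the log2 difference over 835 genes with 2 bright probes. Both probes read the same RNA on the same arrays, so this spread leaves out variation between animals and arrays. It cannot serve as the error of a difference between groups. Of 8 hepatocyte markers named on the array 7 passed the filter, but 3 were saturated on at least 1 array (Alb and Ahsg on 4 each, Apoa1 on 1), so a sum over all 8 cannot show how hepatocyte RNA differed. The 5 markers with no saturated array summed to 64012 on WT high-fat with NDGA, 71920 on WT high-fat, 81501 on ob/ob chow with NDGA, 79377 on ob/ob chow and 74717 on WT chow. Among them Trf was called higher with NDGA in ob/ob (1.03) and was at -0.78 with NDGA in WT. Ttr (0.72 and -0.52) and Hnf4a (0.28 and -0.37) had the same signs. Apob, the largest part of each sum, went the other way, at -0.64 in ob/ob and 0.18 in WT.

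Markers of other cell types were read in the same way. Macrophage and Kupffer cell markers, of which all 10 were above the filter, summed to 5633 on WT high-fat with NDGA, 10702 on WT high-fat, 12135 on ob/ob chow with NDGA, 13771 on ob/ob chow and 6689 on WT chow. Stellate cell markers (6 of 8 above the filter) summed to 4630, 6464, 6076, 5666 and 2672 on the same arrays in that order. Of the 6, 4 were called higher with high-fat feeding and 4 in ob/ob. With NDGA in WT 3 were called lower (Col3a1 at -2.03, Vim at -1.52 and Col1a2 at -1.46), whereas Acta2 was at 0.89 and Des at 0.48, and 0 were called with NDGA in ob/ob. Of the macrophage markers 5 were called higher with high-fat feeding, 3 in ob/ob and 2 with NDGA in ob/ob, and 5 were called lower with NDGA in WT. The 2 with NDGA in ob/ob were Adgre1 (1.09) and Mpeg1 (1.03). Vsig4 (-0.66), C1qb (-0.35) and Marco (-0.16) were lower there, and the rest of the 10 lay between 0.001 and 0.20. The median of the 10 was 0.08 in that comparison. Of all genes above the filter 2.13% were called higher with high-fat feeding, 1.03% in ob/ob and 6.58% with NDGA in ob/ob. With NDGA in WT 1.54% of all genes were called lower. Skeletal muscle markers (7 of 10 above the filter) summed to 10792 on WT high-fat with NDGA, 1889 on WT high-fat, 3528 on ob/ob chow with NDGA, 2689 on ob/ob chow and 2200 on WT chow. Among these, Tnnt3 was called higher with high-fat feeding (1.895) and in ob/ob (3.121), and Tnnc2 lower in both (-1.337 and -1.385). The rest of the 7 were not called in these 2 comparisons. Of all genes 1.29% and 1.77% were called lower in them. Endothelial markers (4 of 5 above the filter) summed to 18265, 20491, 17656, 24543 and 19843 on the arrays in the same order, most of it Clec4g. Lyve1 was called higher in ob/ob (1.21), the only endothelial call, and was at 0.89 with high-fat feeding. With NDGA in WT Lyve1 was at -0.93, Stab2 at -0.78, Clec4g at -0.13 and Pecam1 at -0.05. In whole liver, fewer cells of a type and less RNA per cell cannot be told apart, and the part of these shifts in the P450 values was not tested.

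**Figure D1:**
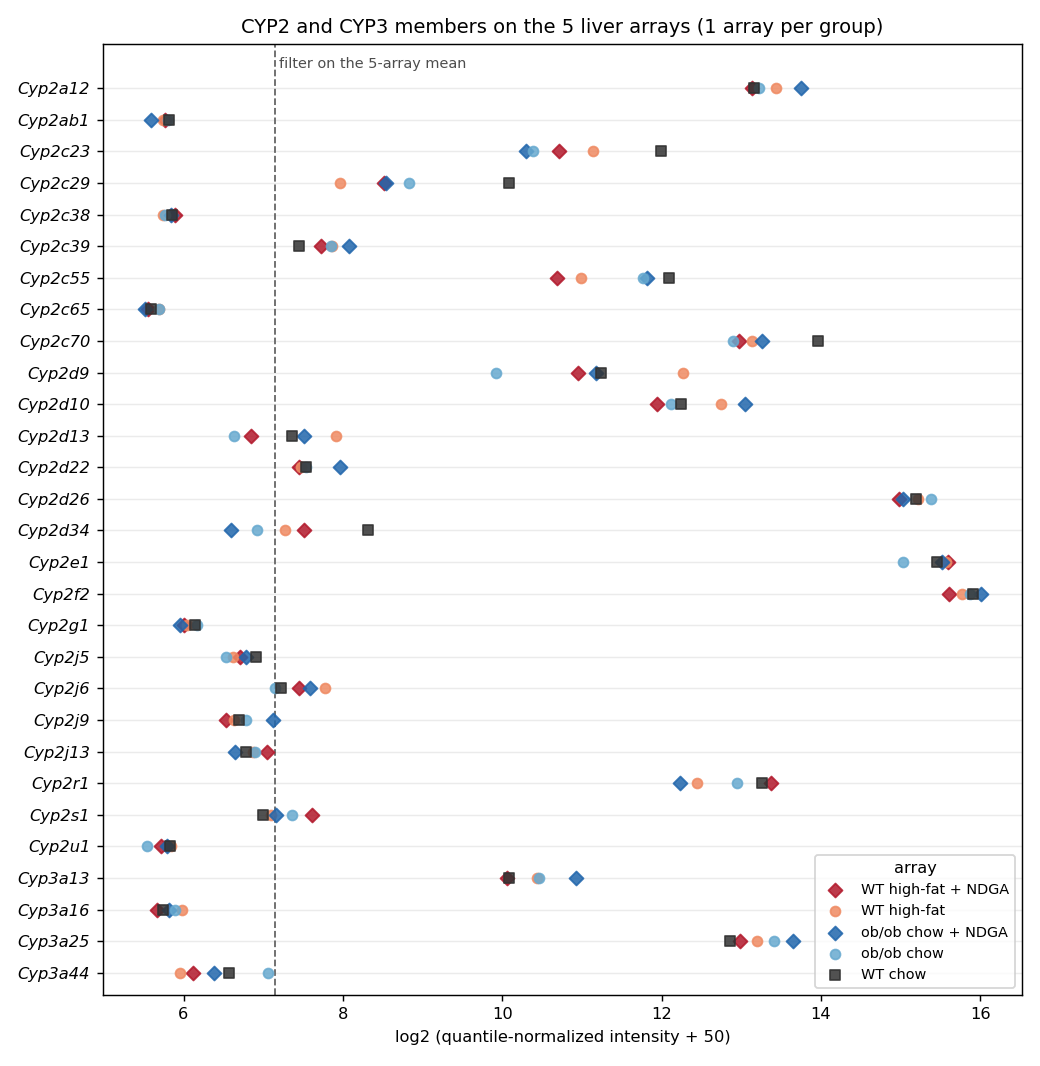
Level of each of the 29 CYP2 and CYP3 genes on the 5 arrays (x axis: log2 of normalized intensity + 50; y axis: genes; 1 point per array). The dashed line is the brightness filter on the mean of the 5 arrays, which 19 genes passed; positions along the x axis belong to different probes and do not rank the genes.

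By subfamily, the 19 genes above the filter were 5 of 7 Cyp2c genes, 6 of 6 Cyp2d genes, 2 of 4 Cyp3a genes, 1 of 4 Cyp2j genes, and the single genes Cyp2a12, Cyp2e1, Cyp2f2, Cyp2r1 and Cyp2s1. Just inside the filter lay Cyp2s1, Cyp2d13 and Cyp2d34, at 0.10, 0.11 and 0.18 log2 units above it, and just outside lay Cyp2j13 at -0.30 and Cyp2j9 at -0.39. The 10 dim genes were Cyp2ab1, Cyp2c38, Cyp2c65, Cyp2g1, Cyp2j5, Cyp2j9, Cyp2j13, Cyp2u1, Cyp3a16 and Cyp3a44. They read between -4.37 and 89.5 on every array and none was called in any of the 4 comparisons, so the counts of called genes below are the same over all 29 genes as over the 19. Cyp2g1, an enzyme of olfactory mucosa, read 12.2 to 21.7.

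Across the 4 comparisons, 12 differences of 7 genes were called, all of them in the Cyp2c and Cyp2d subfamilies. High-fat diet against chow in WT liver had 1 of 19 genes called higher and 3 lower, where 2.13% and 1.29% of all 8319 genes were called. NDGA on the high-fat diet had 0 higher and 2 lower, where 0.841% and 1.54% of all genes were called. For ob/ob against WT on chow 0 genes were called higher and 5 lower, where 1.03% and 1.77% of all genes were called. NDGA on chow in ob/ob liver had 1 higher and 0 lower, where 6.58% and 0.481% of all genes were called. Scaling shifted the split over all genes: without normalization NDGA in WT had 87 higher and 88 lower, against 70 and 128 after it, and ob/ob had 46 higher and 199 lower, against 86 and 147. The calls of lower genes were a larger share of these genes than of all genes for high-fat diet, ob/ob and NDGA in WT. The high-fat and ob/ob comparisons use the same WT chow array, and Cyp2c29 and Cyp2d34 were called lower in both. NDGA in WT had 2 such calls, and Cyp2d13, 1 of these, fell short of 2-fold under some other settings. The single higher call with NDGA in ob/ob was a share near that of all genes.

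**Figure D2:**
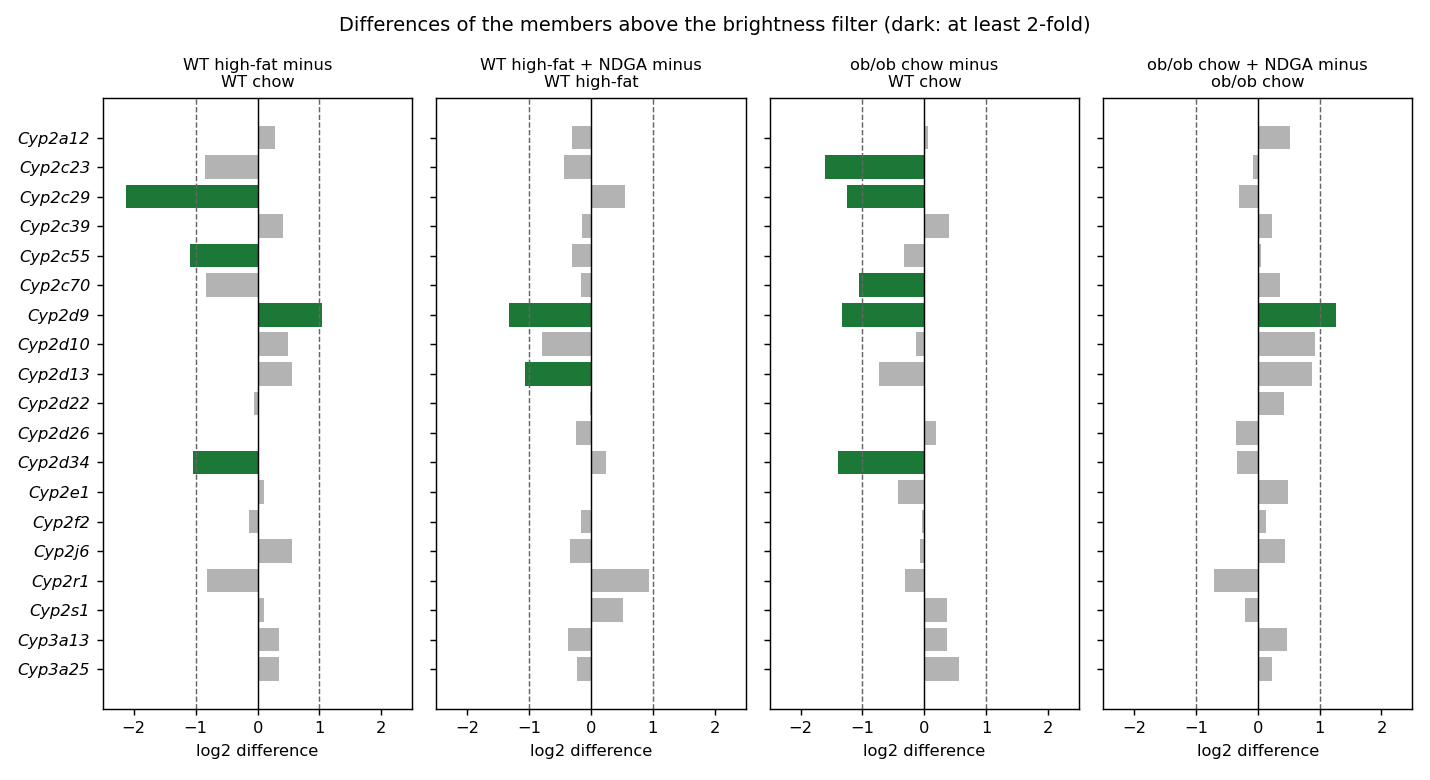
Log2 differences of the 19 genes above the brightness filter in the 4 comparisons (x axis: log2 difference; y axis: genes; dashed lines: 2-fold; dark bars: at least 2-fold). The dark bars are 12 in number and all belong to Cyp2c and Cyp2d genes.

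Cyp2c enzymes oxidise drugs and steroids and turn arachidonic acid into signalling epoxides, and their genes lie on chromosome 19. On the arrays, 4 of the 5 Cyp2c genes above the filter (Cyp2c23, Cyp2c29, Cyp2c55 and Cyp2c70) had their highest value on WT chow. WT chow was the brightest array for 16.9% of all genes above the filter. The exception was Cyp2c39, which was dimmest there. The median log2 difference of the 5 genes was -0.85 on WT high-fat against WT chow and -1.06 on ob/ob chow against WT chow. Both comparisons use the same WT chow array.

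Cyp2c29, a pericentral enzyme inducible through CAR and PXR, read 316 on WT high-fat with NDGA, 200 on WT high-fat, 321 on ob/ob chow with NDGA, 406 on ob/ob chow and 1040 on WT chow. All 4 other arrays were below WT chow, and the high-fat array was at 19.3% of its level. The log2 difference was -2.12 on high-fat diet (4.36-fold lower) and -1.26 in ob/ob (2.39-fold lower). With NDGA it was 0.55 in WT and -0.30 in ob/ob, both short of 2-fold. A second Cyp2c29 probe read 210 on WT high-fat and 441 on WT chow, with log2 differences of -0.92 for high-fat diet and -0.92 for ob/ob. On NDGA in WT the second probe was at -0.46, opposite in sign to the first.

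Cyp2c23, an arachidonic acid epoxygenase listed on the platform as Cyp2c44, read 1622 on WT high-fat with NDGA, 2211 on WT high-fat, 1214 on ob/ob chow with NDGA, 1286 on ob/ob chow and 4019 on WT chow. Both ob/ob arrays were at about the same low level, 30.2% of WT chow with NDGA and 32.0% without. The log2 difference was -1.61 for ob/ob (3.05-fold lower) and -0.85 for high-fat diet. With NDGA it was -0.44 in WT and -0.08 in ob/ob. A second Cyp2c23 probe read 12.3 to 22.4 on all arrays and measured nothing above the filter.

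Cyp2c70 makes the muricholic bile acids of rodents. It read 7996 on WT high-fat with NDGA, 8918 on WT high-fat, 9749 on ob/ob chow with NDGA, 7590 on ob/ob chow and 15851 on WT chow. The 4 other arrays lay between 47.9% and 61.5% of WT chow. The log2 difference was -1.06 for ob/ob (2.08-fold lower) and -0.83 for high-fat diet, with -0.16 for NDGA in WT and 0.36 for NDGA in ob/ob.

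Cyp2c55, another inducible enzyme, was lower on both high-fat arrays than on the other arrays. It read 1597 on WT high-fat with NDGA and 1987 on WT high-fat, then 3550 on ob/ob chow with NDGA, 3419 on ob/ob chow and 4299 on WT chow. The log2 difference was -1.09 for high-fat diet (2.13-fold lower) and -0.33 for ob/ob, and the 2 NDGA comparisons gave -0.31 in WT and 0.05 in ob/ob. Cyp2c39, a retinoic acid hydroxylase, read 162, 183, 220, 181 and 125 on the arrays from WT high-fat with NDGA to WT chow, in the order used above. Its log2 differences lay between -0.14 and 0.41, and none was called. Of 10 xenobiotic-inducible genes listed, 5 were named on the array and 4 passed the filter (Cyp2c29, Cyp2c55, Cyp3a13 and Cyp3a25). Of these, 2 were called lower for high-fat diet and 1 for ob/ob, where 1.29% and 1.77% of all genes were. 0 were called higher, where 0.841% to 6.58% of all genes were, so with 4 genes the absence of higher calls is no result.

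The stretch around the transcription start is shown for Cyp2c70 and Cyp2c29, which were highest on WT chow, and for Cyp2d9, which differed in all 4 comparisons. Each runs 250 bases before to 50 bases after the RefSeq start (GRCm38.p6), 5′ to 3′ on the gene's strand, at chr19:40187237-40187536 on the minus strand for Cyp2c70, chr19:39286835-39287134 on the plus strand for Cyp2c29 and chr15:82452127-82452426 on the plus strand for Cyp2d9. Capitals mark matches, on either strand, to AGGTCA (the nuclear receptor hexamer), CAAAGTNCA (a repeat bound by HNF4, a receptor of hepatocytes), TTCNNNGAA (the STAT palindrome) and TATAAA (the TATA box).
Cyp2c70: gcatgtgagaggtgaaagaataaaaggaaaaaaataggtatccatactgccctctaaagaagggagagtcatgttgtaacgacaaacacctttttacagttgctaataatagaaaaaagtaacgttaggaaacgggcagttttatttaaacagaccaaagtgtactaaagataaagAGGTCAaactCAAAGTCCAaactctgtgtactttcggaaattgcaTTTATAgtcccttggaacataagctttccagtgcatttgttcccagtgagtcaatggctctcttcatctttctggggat
Cyp2c29: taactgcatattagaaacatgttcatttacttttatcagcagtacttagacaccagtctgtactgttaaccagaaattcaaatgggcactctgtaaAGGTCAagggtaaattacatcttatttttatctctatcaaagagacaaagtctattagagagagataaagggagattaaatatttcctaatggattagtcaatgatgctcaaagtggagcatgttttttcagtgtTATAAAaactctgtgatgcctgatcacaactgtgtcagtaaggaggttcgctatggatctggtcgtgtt
Cyp2d9: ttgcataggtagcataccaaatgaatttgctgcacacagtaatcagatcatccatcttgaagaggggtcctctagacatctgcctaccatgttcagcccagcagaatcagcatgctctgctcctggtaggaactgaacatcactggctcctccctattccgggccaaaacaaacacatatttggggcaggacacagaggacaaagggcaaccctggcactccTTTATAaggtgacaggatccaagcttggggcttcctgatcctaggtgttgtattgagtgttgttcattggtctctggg

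Cyp2c70 held the hexamer at -74 and the HNF4 type repeat at -64, with a TATA box at -29, counted from the start to the first base of the match. Cyp2c29 held the hexamer at -154 and a TATA box at -19. Cyp2d9 held only the TATA box, at -28. Of the 29 genes, 23 had a start in the RefSeq table. The HNF4 type repeat was in 5 of these 23 genes (Cyp2c65, Cyp2c70, Cyp2d26, Cyp3a16 and Cyp3a44) and in 1.4% of the 32851 promoters counted. The TATA box was in 14 of 23 and in 13.6%, with matches of these genes starting between -162 and -3. The hexamer was in 7 of 23 and in 16.3%, and the STAT palindrome in 0 of 23 and in 8.3%. A chromosome that holds none of the 23 genes was left out of the count. The 23 genes had 26 promoters, with the repeat in 5, the TATA box in 14, the hexamer in 8 and the STAT palindrome in 0. Of the 5 genes with the repeat, Cyp2c70 and Cyp2d26 were above the brightness filter, and Cyp2d26 was called in none of the comparisons. A match describes letters in this window and is not a binding site shown by these data.

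**Figure D3:**
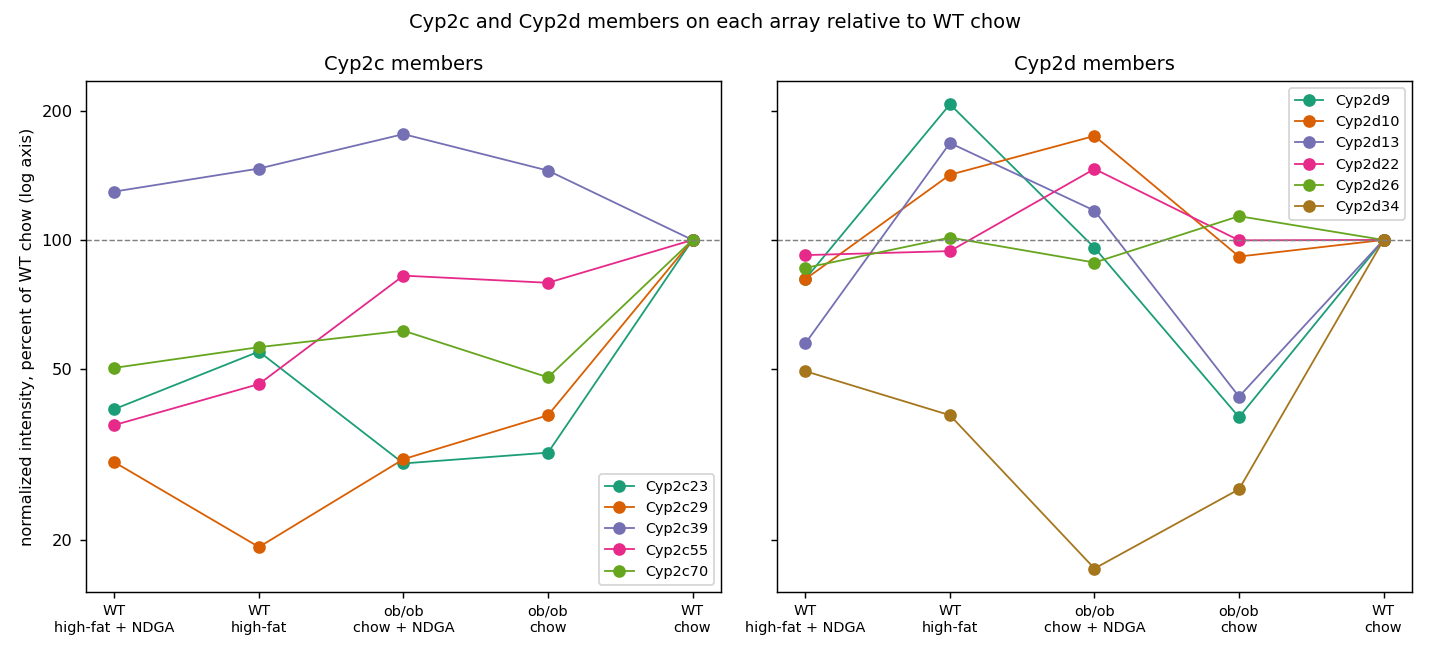
Normalized intensity of the Cyp2c and Cyp2d genes above the brightness filter as a percent of WT chow (y axis, log scale) on the 5 arrays (x axis); 1 point per array, with lines joining the points of a gene. Cyp2c23, Cyp2c29, Cyp2c55 and Cyp2c70 lie below 100% on all other arrays, whereas Cyp2d9 is at 207% on WT high-fat and 38.7% on ob/ob chow.

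Cyp2d enzymes oxidise steroids and many basic drugs, and their genes lie on chromosome 15. With high-fat feeding the median log2 difference of the 6 genes was 0.26, and for ob/ob it was -0.43. With NDGA it was -0.52 in WT and 0.65 in ob/ob. Cyp2d9, a male-biased steroid hydroxylase that depends on growth hormone, was called in all 4 comparisons. It read 1921 on WT high-fat with NDGA, 4896 on WT high-fat, 2270 on ob/ob chow with NDGA, 916 on ob/ob chow and 2366 on WT chow. The high-fat array stood highest and the ob/ob chow array lowest, a 5.12-fold range, while both NDGA arrays lay near WT chow at 81.2% and 95.9%. Cyp2d9 was 2.05-fold higher with high-fat feeding (log2 difference 1.03) and 2.50-fold lower in ob/ob (-1.32). With NDGA it was 2.51-fold lower in WT (-1.33) and 2.40-fold higher in ob/ob (1.26). The high-fat array enters both WT differences and the ob/ob chow array both ob/ob differences. Cyp2d9 rests on 1 probe, and whether that probe also binds transcripts of its close relatives was not tested.

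Cyp2d10 and the brighter Cyp2d13 probe had log2 differences of the same sign as Cyp2d9 in each comparison. Cyp2d10 read 3899 on WT high-fat with NDGA, 6818 on WT high-fat, 8397 on ob/ob chow with NDGA, 4398 on ob/ob chow and 4808 on WT chow. The log2 difference was 0.50 with high-fat feeding and -0.13 for ob/ob, and with NDGA -0.80 in WT and 0.93 in ob/ob, with none called. Cyp2d13, the pseudogene, read 65.4, 191, 133, 49.1 and 114 in the same order, close to the filter. NDGA in WT gave -1.06 (2.09-fold lower) and NDGA in ob/ob 0.89. A second Cyp2d13 probe, just below the filter, stayed between 74.5 and 106 and was at -0.08 with NDGA in WT and 0.03 with NDGA in ob/ob. With high-fat feeding it was at -0.25, against 0.56 for the first probe, and in ob/ob at -0.32.

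Cyp2d34 read 133 on WT high-fat with NDGA, 105 on WT high-fat, 46.3 on ob/ob chow with NDGA, 70.9 on ob/ob chow and 269 on WT chow. WT chow was the highest and both ob/ob arrays the lowest. The log2 difference was -1.04 for high-fat diet (2.06-fold lower) and -1.40 for ob/ob (2.64-fold lower), with 0.24 and -0.33 for NDGA in WT and ob/ob. Cyp2d22, read at 125 to 199, had a largest log2 difference of 0.42, with NDGA in ob/ob. Cyp2d26 was among the brightest probes (32342 to 42639) and stayed within 0.36 log2 units in each comparison. Its second probe was at 0.74 for high-fat diet and 0.49 for ob/ob, against 0.02 and 0.18 for the first.

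Cyp3a enzymes carry out much of the drug and steroid oxidation of liver. Cyp3a13 read 1018 on WT high-fat with NDGA, 1334 on WT high-fat, 1901 on ob/ob chow with NDGA, 1355 on ob/ob chow and 1039 on WT chow. Cyp3a25 read 8033, 9374, 12741, 10828 and 7345 in that order. For both genes the ob/ob chow array with NDGA was highest, and neither was called. Cyp3a13 had log2 differences of 0.35 with high-fat feeding and 0.37 for ob/ob, and with NDGA of -0.37 in WT and 0.47 in ob/ob. Cyp3a25 had 0.35 and 0.56 in the first pair, and -0.22 and 0.23 in the pair with NDGA. A second Cyp3a25 probe, which read 717 on WT high-fat with NDGA, 1645 on WT high-fat, 2764 on ob/ob chow with NDGA, 967 on ob/ob chow and 909 on WT chow, was past 2-fold with NDGA, at -1.14 in WT and 1.47 in ob/ob. The probes had the same sign in all 4 comparisons and differed in size.

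The female-biased Cyp3a genes of mouse liver, Cyp3a16 and Cyp3a44, were both below the filter. Cyp3a44 read between 11.9 and 83.6 and Cyp3a16 between 0.75 and 13.1, too close to background to order the arrays. Of the 7 female-biased genes listed here, these were the 2 named on the array.

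Among the remaining genes, Cyp2e1, the pericentral enzyme that oxidises ethanol, read 49211 on WT high-fat with NDGA, 48597 on WT high-fat, 46743 on ob/ob chow with NDGA, 33433 on ob/ob chow and 45018 on WT chow. The ob/ob chow array was low, with log2 differences of -0.43 from WT chow and 0.48 for NDGA in ob/ob. Both stayed short of 2-fold in the normalized values, but without normalization NDGA in ob/ob was at 1.37. Cyp2f2, a periportal enzyme known for activating naphthalene, read 49717 to 65615 and was saturated on ob/ob chow with NDGA (deposited intensity 65766). With NDGA in ob/ob it was at 0.14 on the log2 scale after quantile normalization, but at -0.20 median centred and -0.76 after loess, so no direction is given there. Its other log2 differences lay between -0.16 and -0.05. Cyp2a12, a steroid and bile acid hydroxylase, read 8918, 11046, 13732, 9509 and 9074 on the arrays from WT high-fat with NDGA to WT chow. It was highest on ob/ob chow with NDGA (log2 difference 0.53), where its second probe was at 0.97.

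Cyp2r1, a vitamin D hydroxylase of liver, read 10532 on WT high-fat with NDGA, 5498 on WT high-fat, 4771 on ob/ob chow with NDGA, 7827 on ob/ob chow and 9730 on WT chow. With high-fat feeding it was at -0.82 and in ob/ob at -0.31 on the log2 scale, and with NDGA at 0.93 in WT and -0.71 in ob/ob. The second Cyp2r1 probe had the opposite sign each time, at 0.33 with high-fat feeding, 0.19 in ob/ob, and with NDGA -0.63 in WT and 0.24 in ob/ob. No direction is given for this gene. Cyp2j6, a fatty acid epoxygenase, read 124, 169, 143, 91.6 and 99.3 in the same order of arrays and was at 0.55 for high-fat diet and 0.45 for NDGA in ob/ob. Cyp2s1, an enzyme of epithelia, read 146 on WT high-fat with NDGA and 78.0 to 115 on the other arrays, with 0.52 for NDGA in WT.

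The 2 NDGA comparisons share no array. Of the 19 genes, 12 were lower with NDGA in WT liver and higher with NDGA in ob/ob liver, a pattern shown by 35.3% of all genes above the filter. Cyp2a12, Cyp2c39, Cyp2c55, Cyp2c70, Cyp2d9, Cyp2d10, Cyp2d13, Cyp2d22, Cyp2f2, Cyp2j6, Cyp3a13 and Cyp3a25 made up this group. Of these 12, 10 kept both signs under the 5 alternatives of scaling and offset. Cyp2d22 lost the pattern without normalization, and Cyp2f2 when median centred or after loess. With saturated probes left out the pattern was shown by 11 of 18 genes. The opposite pattern was shown, on the brightest probe, by Cyp2c29, Cyp2d34, Cyp2r1 and Cyp2s1 (4 of 19), and by 38.9% of all genes. Cyp2e1 was higher in both and Cyp2c23 and Cyp2d26 lower in both. The second probes of Cyp2c29, Cyp2r1 and Cyp2d26 were instead lower with NDGA in WT and higher with NDGA in ob/ob. These other patterns depended on scaling too. Cyp2e1 was at 0.02 with NDGA in WT, but at -0.11 without normalization and -0.23 median centred. Without normalization no gene showed the opposite pattern or was lower in both. Of the 19 genes, Cyp2d9 was past 2-fold in both NDGA comparisons. The median over the 19 genes was -0.22 with NDGA in WT (all genes -0.04) and 0.23 with NDGA in ob/ob (all genes -0.10). Without normalization the ob/ob array with NDGA was brighter throughout: 19 of 19 genes and 97.5% of all genes were higher there and 11 genes were called higher instead of 1, with medians of 1.04 for these genes and 0.67 for all. Relative to the median of all genes the 19 were at 0.34 with normalization and 0.37 without it. Of the skeletal muscle markers, 6 of 7 were called higher with NDGA in WT and 4 of 7 in ob/ob. Of all genes 0.841% and 6.58% were called higher there. Tnnt3 was at -0.77 in WT and Pvalb at -0.43 in ob/ob.

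**Figure D4:**
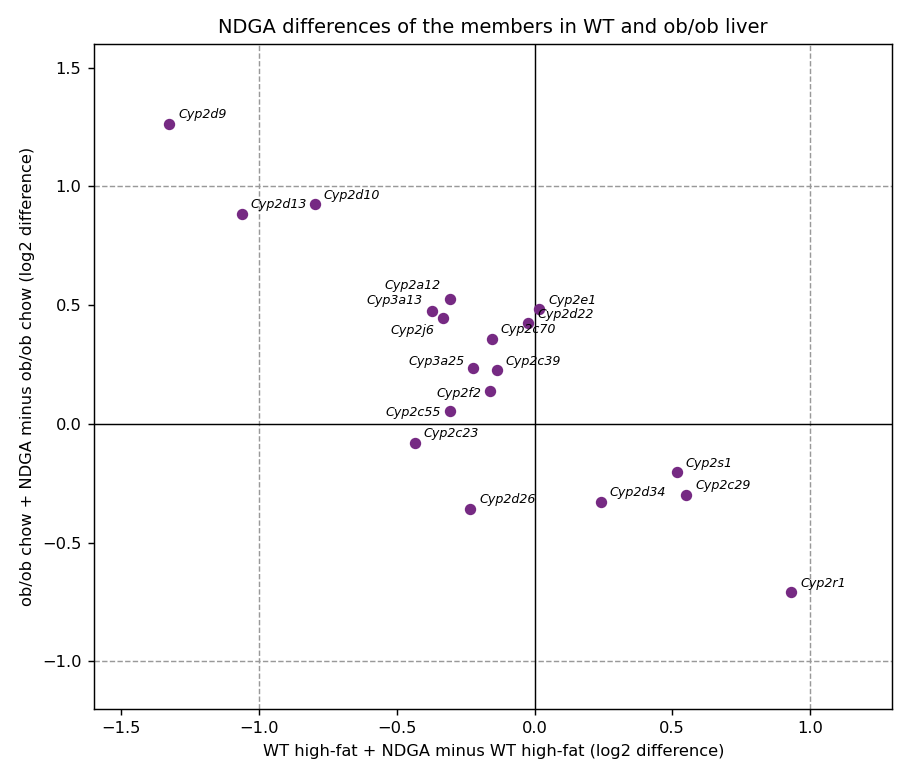
Log2 differences with NDGA of the 19 genes above the brightness filter, in WT liver on the high-fat diet (x axis) and in ob/ob liver on chow (y axis); 1 point per gene, dashed lines at 2-fold. The upper left of the plot holds 12 genes, with Cyp2d9 at -1.33 and 1.26; Cyp2f2 (saturated) and Cyp2d22 leave it under other scalings.

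For high-fat diet the median over the 19 genes was 0.10 (all genes -0.01), and for ob/ob -0.13 (all genes 0.03). The median size of a difference, regardless of sign, was 0.50 over the 19 genes and 0.27 over all genes for high-fat diet, and 0.37 against 0.17 for ob/ob. With NDGA it was 0.31 against 0.32 in WT and 0.36 against 0.39 in ob/ob. Median sizes of these genes were larger than those of all genes in the comparisons with WT chow and of about the same size with NDGA. Both comparisons with WT chow use the same WT chow array. The 19 genes and all genes were not matched for brightness, and the log2 scale used understates differences of dim genes.

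The electron donors and haem enzymes that P450s need had medians of 0.28 for high-fat diet and -0.11 for ob/ob. Alas1, which sets the pace of haem synthesis, read 36889 on WT high-fat with NDGA, 26654 on WT high-fat, 24943 on ob/ob chow with NDGA, 12486 on ob/ob chow and 11046 on WT chow, so it was lowest on the array where most Cyp2c genes were highest. Its log2 difference was 1.27 for high-fat diet and 0.99 for NDGA in ob/ob, just under the 2-fold mark. Cyb5a, the microsomal cytochrome b5, read 5196 on ob/ob chow with NDGA and 1389 on ob/ob chow (log2 difference 1.87), and at most 2632 elsewhere. Por was at 0.86 in that comparison (2158 with NDGA and 1162 without), and at 0.34 for high-fat diet and -0.24 for ob/ob. Over the 11 partners above the filter, 1 was called higher and 0 lower for high-fat diet, and 0 in either direction for NDGA in WT and for ob/ob. For NDGA in ob/ob 1 was called higher and 0 lower, with a median of 0.57. Of all genes, 2.13% were called higher for high-fat diet and 6.58% for NDGA in ob/ob. A single call among 11 genes is too few to set against these shares.

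**Figure D5:**
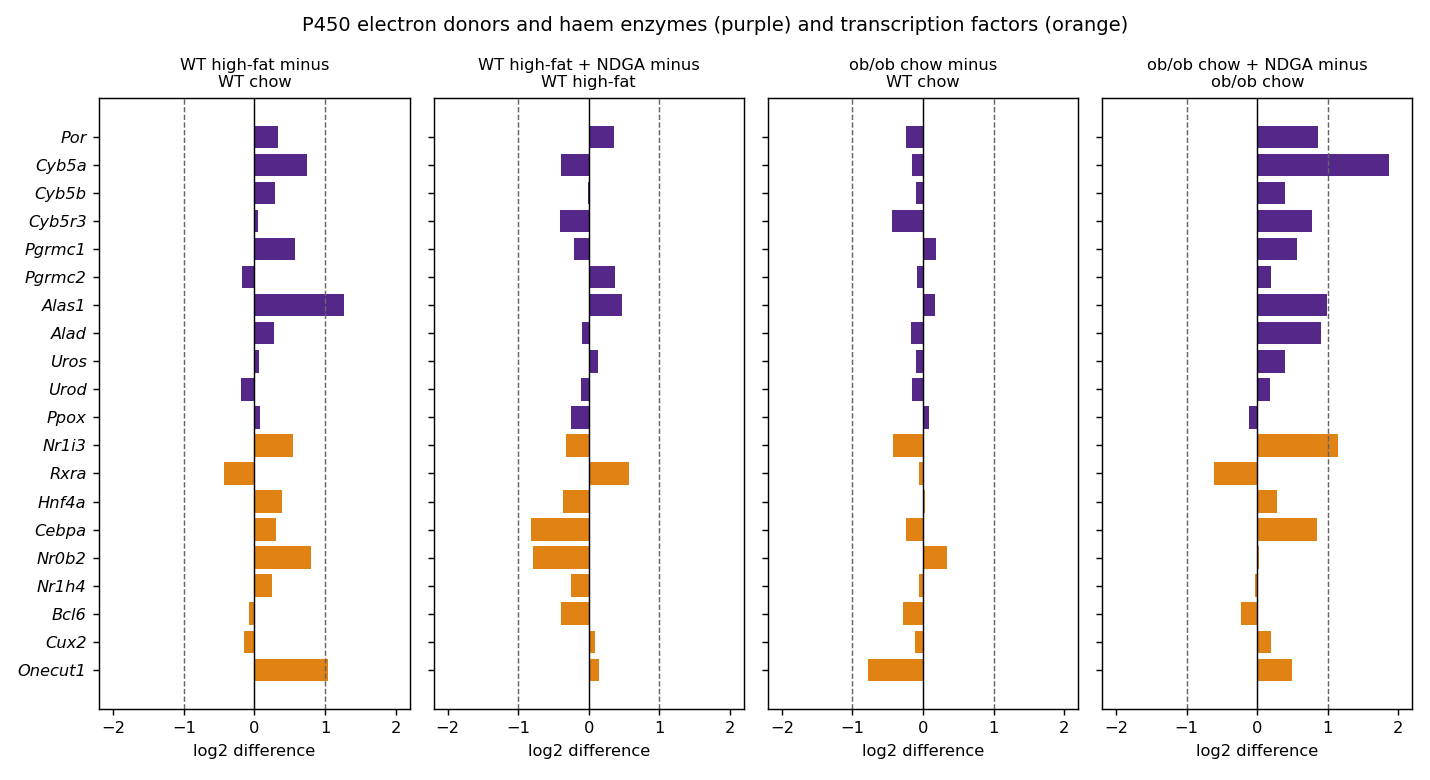
Log2 differences in the 4 comparisons of 11 P450 electron donors and haem enzymes (purple) and 9 transcription factors (orange) above the brightness filter (x axis: log2 difference; y axis: genes; dashed lines: 2-fold). Alas1 and Onecut1 are past 2-fold on high-fat diet, and Cyb5a and Nr1i3 with NDGA in ob/ob.

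Among transcription factors of P450 genes, 9 of 11 named on the array were above the filter. Nr1i3, which encodes CAR, read 359 on WT high-fat with NDGA, 462 on WT high-fat, 525 on ob/ob chow with NDGA, 210 on ob/ob chow and 300 on WT chow. It was lowest on ob/ob chow and was called higher with NDGA there (log2 difference 1.15). Nr1i2, which encodes PXR, stayed below the filter at 16.5 to 44.0. Hnf4a lay between 3103 and 4081, with a largest difference of 0.39 for high-fat diet. Onecut1, a liver factor, was called higher on high-fat diet (1.05, 474 on WT high-fat and 204 on WT chow). Cebpa was at -0.81 for NDGA in WT and 0.85 for NDGA in ob/ob. Of all genes 2.13% were called higher on high-fat diet and 6.58% with NDGA in ob/ob. A single call among 9 factors is too few to set against either share.

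Markers of liver zones were set beside the P450 genes, several of which are zonal. The 10 pericentral markers above the filter had medians of 0.28 for high-fat diet and -0.24 for ob/ob, and the 8 periportal markers -0.04 and -0.06. Glul, the glutamine synthetase of the innermost pericentral cells, was called higher on high-fat diet (1.24), the only call among the 10 there. Rgn (-0.74) and Oat (-0.18) were lower there, and the rest of the 10 were higher without a call. Cyp2c29 was at -2.12 there on its brightest probe and at -0.92 on its second. In ob/ob the pericentral Oat (-1.02) and the periportal Igf1 (-1.01) were both called lower. With NDGA in WT the pericentral Cyp1a2 was called lower (-1.49). With NDGA in ob/ob the periportal Cps1 was called higher (1.72) and the periportal Ctsc lower (-1.10). Of all genes 2.13% were called higher on high-fat diet, 1.77% lower in ob/ob and 1.54% lower with NDGA in WT. The shares with NDGA in ob/ob were 6.58% higher and 0.481% lower. Single calls among 10 or 8 markers are too few to set against these shares. With NDGA the pericentral medians were -0.36 in WT and 0.02 in ob/ob, and the periportal medians -0.11 and 0.03.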

How the data were processed

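The deposited value table holds linear probe intensities of 29922 probes on 5 arrays, 1 per group. The scanner, background correction and scaling behind the intensities the authors deposited are not stated in the labels or the series text, and values below 0 point to a subtracted background. Labelling was with Cy5 through aminoallyl RNA, per the labels' protocols. Values at or above 65000 were taken as saturated.

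Probes were named through the platform table (21020 with 1 symbol, 0 with several, 8902 unnamed here), and symbols were updated through RefSeq GRCm38.p6 (17558 current, 3410 replaced, 52 kept). Arrays were quantile normalized, log2(value + 50) was taken, and each gene was read from the probe with the highest mean deposited intensity. Calls required a log2 difference of at least 1 among genes at or above the median of all genes in their mean over 5 arrays. No test was possible with 1 array per group. The members and gene lists were chosen with earlier results of these data known. Any gene of the family could be named, with values on every array for those called and for the brightest of each subfamily; partner genes came from the fixed lists. The steps were tested on simulated data. There were 9 alternatives. Python 3.11.15, numpy 2.4.6, pandas 2.3.3, statsmodels 0.14.6 (loess, span 0.3) and matplotlib 3.10.9 were used. The number of arrays limits the precision.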

Additional observations from a re-analysis of the deposited data

Results flagged for a closer look

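Cyp2d9 differed past 2-fold in opposite directions in the 2 NDGA comparisons. Its log2 difference was -1.33 with NDGA in WT liver on the high-fat diet and 1.26 with NDGA in ob/ob liver on chow. Each side is 1 array against 1 array, so the difference between the comparisons was not tested. Under the 5 alternatives of scaling and offset, which are those that can change a gene with 1 unsaturated probe, the values lay between -1.45 and -1.29 in WT and between 1.22 and 2.17 in ob/ob. Most skeletal muscle markers above the filter were higher with NDGA in both livers. The exceptions were Tnnt3 in WT (-0.77) and Pvalb in ob/ob (-0.43). The part of these markers in the Cyp2d9 values was not tested.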

How the results depend on the processing

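The 12 called differences could change under 5 alternatives of scaling and offset and, for genes with several probes, under the mean of probes. Of these 64 values 58 were at least 2-fold the same way, 6 had the same direction below 2-fold and 0 reversed, and 9 of the 12 were past 2-fold in each. The brightness filter at the 75th percentile leaves out the genes of 3 called differences (Cyp2d34 and Cyp2d13). The 6 values below 2-fold were Cyp2d34 on high-fat diet (-0.97 after loess, -0.85 with an offset of 100), Cyp2d13 with NDGA in WT (-0.93 without normalization, -0.57 as the mean of all probes, -0.82 with an offset of 100) and Cyp2c23 in ob/ob (-0.78 as the mean of all probes). Genes called lower with NDGA in WT numbered 1 instead of 2 without normalization, as means of probes, with an offset of 100, and under that stricter filter, and 3 median centred, with Cyp2d10 added. The median of the 19 genes there was -0.33 without normalization and -0.44 median centred, and in ob/ob against WT -0.44 and -0.43 for the same pair of settings, and -0.31 under the stricter filter. NDGA in ob/ob depended most on scaling: genes called higher numbered 11 without normalization, 3 median centred, 2 after loess and 2 with an offset of 16, and the median was 1.04, 0.58, 0.39 after loess and 0.36 as means of probes. For all 8319 genes, calls in that comparison were 547 higher and 40 lower, against 2627 and 5 without normalization. All genes called higher numbered 1220 median centred, 886 after loess and 697 with an offset of 16. The 3 of 19 genes median centred and the 2 of 19 after loess were shares near those of all genes. The cause of the dependence on scaling was not tested. Genes lower in WT and higher in ob/ob with NDGA numbered 12 to 14 of 19 under the normalization and offset alternatives, against 35.2% to 48.0% of all genes. No paired analysis was possible because each group has 1 array. Dim genes near background and the saturated Cyp2f2 probe allow no finer statement.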
